A study of Mus musculus with 2 samples.

Results

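The Schlafen genes form a family of vertebrate genes that sit side by side in the mouse genome, and 7 of them are described here among the 54446 genes of the count table. They are Slfn1, Slfn2, Slfn3, Slfn4, Slfn5, Slfn8 and Slfn9, chosen by their symbols in GENCODE M21 and not by any measured value, and together they span 264 kb of chromosome 11 (chr11:82951349-83215154, mm10). The series holds messenger RNA counts from C57BL/6 mouse macrophages grown in culture from marrow cells (bone marrow derived macrophages). There was 1 library of cells given IL-36 gamma, an inflammatory cytokine related to interleukin-1, and 1 library of untreated control cells. For the dose, the length of exposure, the culture conditions, and the number, sex and age of the mice, the sources used here give nothing. The IL-36 gamma library held 17267900 counts in genes and the control library 17426367. With 1 library per group there is no replicate check, so a difference below compares these libraries and carries no p-value.

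Schlafen proteins share an amino-terminal region with a divergent ATP-binding fold, and mouse members are sorted into a short, an intermediate and a long group. Members of the family are known as genes induced by interferon, and they are studied for restraining cell growth, keeping lymphocytes quiescent and binding or cutting transfer RNA. In myeloid cells their levels are known to shift as monocytes mature into macrophages and when cells meet microbial products or interferon. The short members are Slfn1 and Slfn2. Slfn3 and Slfn4 are intermediate and carry a linker named after its residues SWADL, and the long members Slfn5, Slfn8 and Slfn9 add a carboxy-terminal part that resembles a helicase.

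The coding sequences of GENCODE M21 fall into the same groups by length. The longest annotated proteins have 337 residues for Slfn1 and 378 for Slfn2, 640 for Slfn3 and 602 for Slfn4, and 884 for Slfn5 and 910 each for Slfn8 and Slfn9. A search for SWA followed by DL, with at most 1 residue between, found 1 match in each of the 5 intermediate and long members and 0 in Slfn1 and Slfn2. The closest pairs were Slfn8 and Slfn9, whose proteins were identical at 85.8% of 910 aligned residues, and Slfn3 and Slfn4, identical at 83.9% of 595. Slfn2 was identical to Slfn4 at 58.6% of 360 residues and to Slfn1 at 55.3% of 333, and Slfn5 matched Slfn9 at 43.4% of 864.

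Because such copies can compete for the same reads, a stretch that 2 members of the same group share, or nearly share, is shown for each group from their coding sequences (chromosome 11, GRCm38, read 5′ to 3′ on the coding strand). The first stretch lies inside a run of 139 bases that Slfn8 and Slfn9 share without a difference, at coding bases 2540 to 2629 of each. The second lies inside a run of 95 bases common to Slfn3 (coding bases 1433 to 1522) and Slfn4 (1301 to 1390). The last pair of lines sets Slfn1 (coding bases 761 to 850) beside Slfn2 (872 to 961), with the 6 differing bases of 90 in capitals.
Slfn8 and Slfn9: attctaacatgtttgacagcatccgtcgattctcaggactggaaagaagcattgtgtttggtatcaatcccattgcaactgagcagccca
Slfn3 and Slfn4: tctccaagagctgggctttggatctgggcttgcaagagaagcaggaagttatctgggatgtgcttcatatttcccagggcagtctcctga
Slfn1: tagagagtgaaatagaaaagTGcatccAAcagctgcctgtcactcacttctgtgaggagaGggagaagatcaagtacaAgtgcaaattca
Slfn2: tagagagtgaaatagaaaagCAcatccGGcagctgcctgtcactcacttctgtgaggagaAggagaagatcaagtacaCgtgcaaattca

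Most of each transcript was not shared in this way. Of all 50-base words in the annotated transcripts, the share that also occurs in another Schlafen gene was 14.6% for Slfn8, 11.2% for Slfn9, 8.15% for Slfn4, 7.39% for Slfn3, 4.27% for Slfn2 and 0.606% for Slfn1, and 0 of the Slfn5 words did. For 100-base words the shares were 3.71% for Slfn9 and 3.38% for Slfn8, and at most 0.128% for any other member. The gene with the most shared 50-base words was Slfn10-ps for Slfn8 and Slfn9, and Slfn4 for Slfn1, Slfn2 and Slfn3. Counted against every other gene, on either strand, the shares of 50-base words were 16% for Slfn3, 14.6% for Slfn8, 11.9% for Slfn9, 11.3% for Slfn4 and 11.1% for Slfn5. For 100-base words they were 6.4% for Slfn5 and 2.92% for Slfn3. The read length is not given in the sources used here, so single values of Slfn8, Slfn9, Slfn3, Slfn4 and Slfn5 are uncertain to an extent that was not measured. Of the 6326 exonic bases of Slfn5, 559 (8.84%) overlap exons of the antisense gene Slfn5os, and without a stated strand setting the reads of these genes cannot be told apart.

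All 7 members had a mean count of at least 10, the level at which a gene counted as measured, as did 14379 genes in all. Macrophages of both libraries carried Slfn2 and Slfn5 in abundance, Slfn8 at a lower level and the other members at levels lower still. Levels of different genes are given per length, as CPM (scaled counts per 1000000 gene counts) per kilobase of exon, with an exact 95% Poisson interval that covers counting error only. Slfn2, whose loss of function in mice makes T cells leave quiescence and which is known to shield transfer RNA from cleavage there, stood at 233 (228 to 239) in the IL-36 gamma library, against 176 (171 to 181) in the control. This per-length level exceeded that of 98.6% of measured genes in the IL-36 gamma library and of 98.3% in the control. Slfn5, an interferon-induced long member with a helicase-like part, stood at 43.3 (42.1 to 44.6) in the IL-36 gamma library and 41.2 (40.1 to 42.4) in the control, and Slfn8 at 16.5 in both.

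The order of per-length levels at the low end differed between the libraries. In the IL-36 gamma library Slfn8 was followed by Slfn1 at 5.54 (4.75 to 6.43), Slfn9 at 4.86 (4.44 to 5.31) and Slfn4 at 4.56 (4.06 to 5.10), whose intervals overlap, and by Slfn3 at 2.49 (2.10 to 2.94), whose interval lies below theirs. In the control library Slfn9 at 5.95 (5.50 to 6.44) came next, apart from the rest, and Slfn4 at 3.51 (3.08 to 3.97), Slfn3 at 3.48 (3.03 to 3.98) and Slfn1 at 2.96 (2.40 to 3.61) overlapped. Slfn1 was thus among the 3 lowest members in the control library and level with Slfn9 and Slfn4 in the IL-36 gamma library. Taken by the length of the longest transcript in place of all exons, Slfn3 stood at 3.0 in the IL-36 gamma library, where the order was unchanged, and at 4.19 in the control, where it then came before Slfn4 at 3.51.

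**Figure D1:**
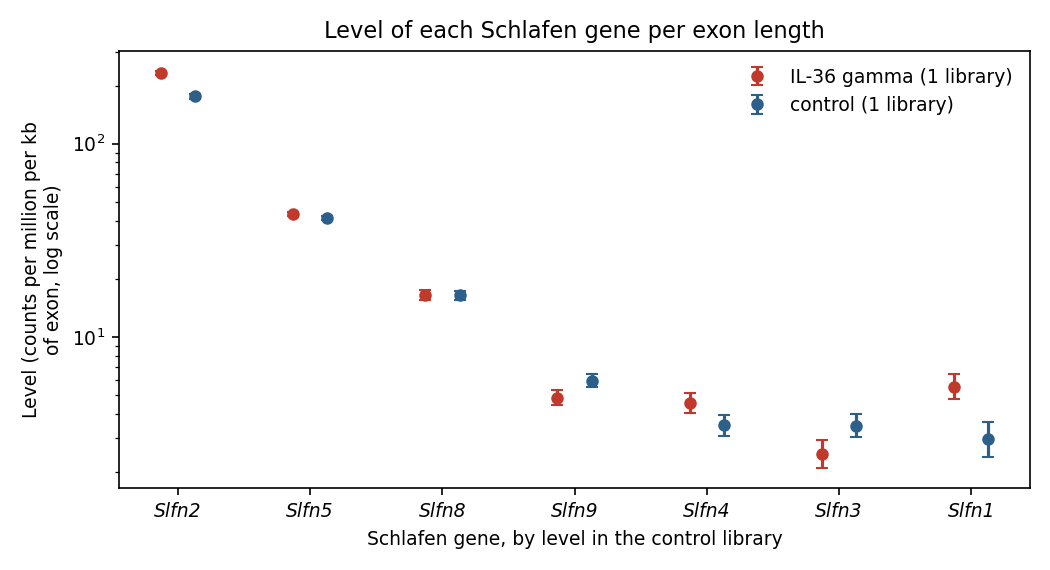
Level of each of the 7 Schlafen genes in CPM per kilobase of exon (log scale), with IL-36 gamma in red left of the control in blue, 1 library each. Bars are exact 95% Poisson intervals. Slfn2 stands at 233 in the IL-36 gamma library and 176 in the control, and Slfn1, with the largest ratio, at 5.54 and 2.96.

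The comparison asks which Schlafen transcripts differ between macrophages given IL-36 gamma and untreated macrophages. The members differed in both directions. Slfn1, Slfn2 and Slfn4 were higher with IL-36 gamma, Slfn3 and Slfn9 were lower, and Slfn5 and Slfn8 lay within about 5% of the control. A member is called higher or lower here when the exact 95% Clopper-Pearson interval of its ratio, IL-36 gamma over control after scaling, lies wholly on 1 side of 1. By this rule 4 of the 7 members were higher, against 20.2% of all measured genes, and 2 of 7 were lower, against 16.5%. Intervals narrow as counts rise, and these shares were not matched to the members' counts. The fourth higher call, that of Slfn5, was lost under 4 of 7 other scalings and trend corrections and with a 99% interval. For a ratio with its whole interval above 2, the count was 0 of 7 (0.0765% of measured genes), and below 0.5 it was also 0 of 7 (0.0904% of measured genes). The median log2 ratio of the members was 0.07, beside 0.01 over all measured genes. These are bulk libraries, in which fewer cells of a type and less RNA per cell cannot be told apart.

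Schlafen levels differ between blood cell types, so the markers of other cells are given beside these ratios. Macrophage markers were abundant, with 10 of 10 measured, 4 higher and 5 lower, and summed levels of 31721 CPM in the IL-36 gamma library and 31783 in the control. Several myeloid markers were higher alongside Slfn1, Slfn2 and Slfn4. Of 10 neutrophil markers 9 were measured, 6 of them higher and 1 lower, and they summed to 313 CPM in the IL-36 gamma library and 258 in the control. Those higher included S100a8 (ratio 1.58), S100a9 (1.7) and the granule protein genes Ngp (1.54) and Ltf (1.53). Elane, also higher, had 22 counts in the IL-36 gamma library and 3 in the control (ratio 7.7, 2.31 to 40.2). The lower neutrophil marker, Mmp8, had 1205 counts in the IL-36 gamma library and 1907 in the control (0.663). The defining surface gene Ly6g had 9 counts in the IL-36 gamma library and 8 in the control. Of 7 monocyte markers 5 were higher, among them Ly6c2 with 233 counts in the IL-36 gamma library and 125 in the control (1.96), and 1, F13a1, was lower. The monocyte list summed to 312 CPM in the IL-36 gamma library and 335 in the control, of which F13a1 alone made up 124 and 213 CPM. Lymphocyte markers were few. Of 8 T cell markers, Cd3e, Cd3g and Cd8a had 0 counts in both libraries, and the list's 13.6 CPM in the IL-36 gamma library and 19.0 in the control came nearly all from Cd4 and Cd28. The B cell list, 2 of 6 measured, with Cd79b higher and Ighm lower, summed to 46.1 CPM in the IL-36 gamma library and 43.1 in the control. The NK cell list (0.236 and 0.113 CPM) and the dendritic cell list (1.54 and 1.69 CPM) had 0 measured genes. Of 4 measured fibroblast markers 3 were lower, and the list summed to 6.91 CPM in the IL-36 gamma library, against 12.0 in the control. The part of such cells in the Schlafen ratios was not tested.

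Among the short members, Slfn1 (ENSMUSG00000078763, chr11:83116849-83122670, plus strand), first described in thymocytes as a brake on growth, had 175 counts in the IL-36 gamma library, against 98 in the control. Its ratio was 1.87 (1.46 to 2.43), and 0.485% of the 1857 genes with a mean count within 1.5-fold of its own had a higher ratio. Slfn2 (ENSMUSG00000072620, chr11:83065112-83070678, plus strand) had 6568 counts in the IL-36 gamma library, against 5196 in the control, a ratio of 1.33 (1.28 to 1.38). A higher ratio was seen in 3.59% of the 474 genes of like count. Slfn1 thus showed the largest ratio of the family on few counts, and Slfn2 a smaller one that counting error bounds closely. With the trend on expression removed the Slfn2 ratio was 1.24 (1.2 to 1.29), so its size depended on the processing. The number of Slfn1 counts per Slfn2 count, which needs no scaling between libraries, was 1.41 times (1.09 to 1.83) as high in the IL-36 gamma library as in the control, by an exact conditional interval.

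The intermediate members, which are close copies, differed in opposite directions. Slfn4 (ENSMUSG00000000204, chr11:83175186-83190216, plus strand), known from monocytes and immature myeloid cells and as a gene induced by Toll-like receptor ligands and interferon, had 306 counts in the IL-36 gamma library, against 247 in the control, a ratio of 1.30 (1.10 to 1.54). Slfn3 (ENSMUSG00000018986, chr11:83191330-83215154, plus strand), studied in T cells and, in the rat, in intestinal cell differentiation, had 144 counts in the IL-36 gamma library, against 211 in the control, a ratio of 0.716 (0.575 to 0.890). Of genes with a like count, 5.01% of 2414 had a higher ratio than Slfn4 and 5.22% of 2050 a lower one than Slfn3. There were 0.471 Slfn3 counts per Slfn4 count in the IL-36 gamma library, against 0.854 in the control, a ratio of these ratios of 0.551 (0.417 to 0.728). Summed over both genes the counts were close, with 450 in the IL-36 gamma library and 458 in the control and a ratio of 1.03 (0.903 to 1.18). Whether reads were divided differently between the 2 copies in the 2 libraries was not tested.

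The long members were near the control level or lower. Slfn5 (ENSMUSG00000054404, chr11:82951349-82964840, plus strand) had 4637 counts in the IL-36 gamma library and 4636 in the control, which after scaling gave a ratio of 1.05 (1.01 to 1.09). With scaling by total counts the ratio was 1.01 (0.969 to 1.05), and with the trend on expression removed it was 0.991, so its direction rests on the scaling. Slfn8 (ENSMUSG00000035208, chr11:83002158-83020810, minus strand) had 1144 counts in the IL-36 gamma library and 1197 in the control, a ratio of 1.0 (0.924 to 1.09). Slfn9 (ENSMUSG00000069793, chr11:82978390-82991830, minus strand), its closest copy, had 491 counts in the IL-36 gamma library, against 631 in the control, a ratio of 0.817 (0.724 to 0.920), and 7.76% of 2797 genes of like count had a lower one. The Slfn8 counts per Slfn9 count were 2.33 in the IL-36 gamma library, against 1.90 in the control, a ratio of these ratios of 1.23 (1.06 to 1.42). Summed over both copies the counts were 1635 in the IL-36 gamma library and 1828 in the control (ratio 0.939, 0.878 to 1.0). This sum leaves out Slfn10-ps, the gene sharing the most 50-base words with each, which had 178 and 260 counts.

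**Figure D2:**
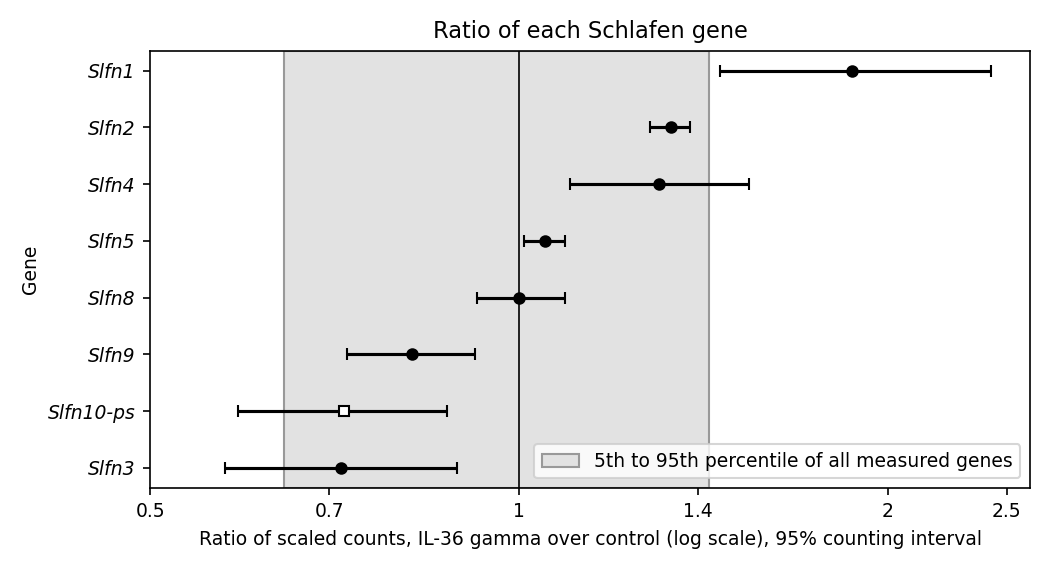
Ratio of scaled counts, IL-36 gamma over control (log scale), for the 7 members (filled circles) and the pseudogene Slfn10-ps (open square), with exact 95% counting intervals. The grey band holds the 5th to 95th percentile of all measured genes, 0.643 to 1.43. Slfn1 at 1.87 lies above the band, and the ratios of the other members lie inside it.

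Most pairs of members had ratios that counting error tells apart. Of the 21 pairs, 18 had a ratio of ratios whose exact 95% interval lay on 1 side of 1, with no allowance for the number of pairs. The other 3 pairs were Slfn2 with Slfn4 (1.02, 0.856 to 1.22), Slfn5 with Slfn8 (1.05, 0.955 to 1.15) and Slfn3 with Slfn9 (0.877, 0.683 to 1.13). An interval that holds 1 does not show that the members of such a pair responded alike. By group, the summed counts of the short members were 6743 in the IL-36 gamma library, against 5294 in the control (ratio 1.34, 1.29 to 1.39), and those of the long members 6272 and 6464 (ratio 1.02, 0.984 to 1.05). The short members have the shortest exons of the family, 1864 bases for Slfn1 and 1664 for Slfn2, and over the whole table ratios fell with exon length in all but the shortest genes. With measured genes cut into 10 equal groups by exon length, the median log2 ratio was 0.13 in the second group and -0.16 in the last, which holds the longest. With that trend removed, the ratio was 1.73 (1.35 to 2.24) for Slfn1 and 1.23 (1.18 to 1.27) for Slfn2.

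The sum of the family followed Slfn2. All 7 members together had 13465 counts in the IL-36 gamma library, against 12216 in the control, a ratio of 1.16 (1.13 to 1.19). Without Slfn2 the ratio of the summed counts was 1.03 (0.997 to 1.07). Slfn2 took 48.8% of the family's counts in the IL-36 gamma library (exact 95% interval 47.9 to 49.6), against 42.5% (41.7 to 43.4) in the control. Slfn5 held 34.4% (33.6 to 35.2) in the IL-36 gamma library, against 38.0% (37.1 to 38.8) in the control. Slfn1, at 1.30% in the IL-36 gamma library and 0.802% in the control, remained a small part of the whole.

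**Figure D3:**
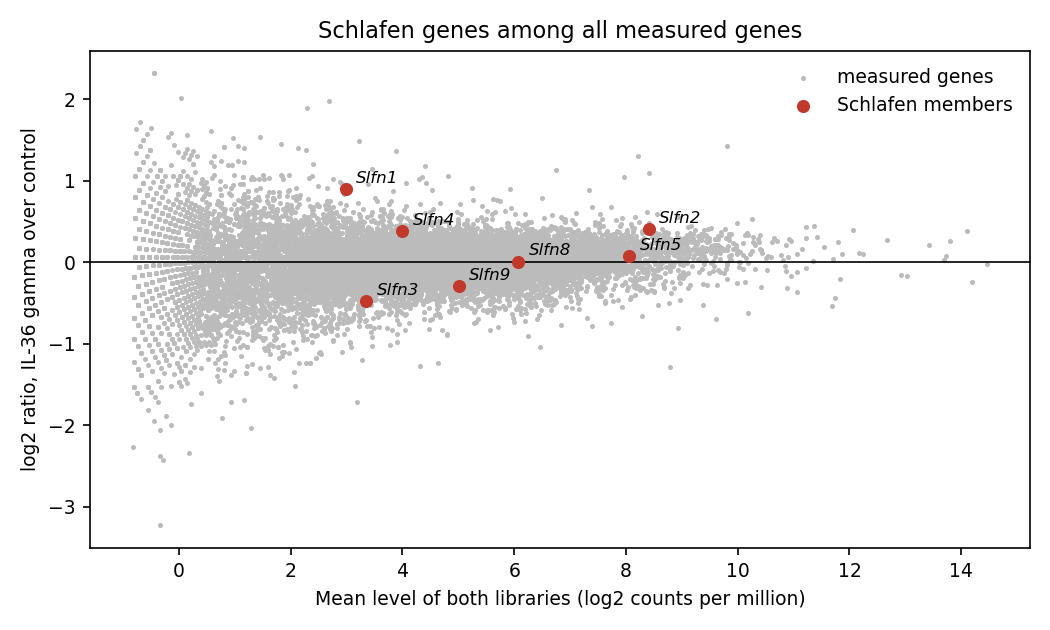
The log2 ratio of IL-36 gamma over control against the mean level of both libraries in log2 CPM, for each measured gene (grey) and the 7 Schlafen members (red). Slfn1 lies near the upper edge of genes of its level, Slfn2 lies high among abundant genes, and Slfn3 and Slfn9 lie below 0.

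Along chromosome 11 the genes lie in the order Slfn5, Slfn9, Slfn8, Slfn10-ps, Slfn2, Slfn1, Slfn4, Slfn3 and Slfn14. The 3 members called higher under every scaling and trend correction run, Slfn2, Slfn1 and Slfn4, are next to each other. They lie on the plus strand, as do Slfn3 (ratio 0.716) and Slfn5 (1.05), while Slfn9, Slfn8 and Slfn10-ps lie on the minus strand and were near the control level or lower. The transcribed pseudogene Slfn10-ps had 178 counts in the IL-36 gamma library, against 260 in the control, a ratio of 0.719 (0.590 to 0.873). Of its own 50-base words, 19.7% also occur in other Schlafen genes, so its value is uncertain in the same way. Slfn5os had 482 counts in the IL-36 gamma library and 530 in the control (ratio 0.955, 0.842 to 1.08). Of its 1102 exonic bases, 559 (50.7%) overlap exons of Slfn5. Without a stated strand setting, the Slfn5os counts may include reads of Slfn5. Slfn14, a long member studied in human platelets and erythroid cells, had 0 counts in both libraries. An exact 95% Poisson interval for 0 counts reaches up to 0.218 CPM in the IL-36 gamma library and 0.208 in the control, and 3 counts would be 0.177 and 0.169 CPM. The Schlafen-like gene Slfnl1 on chromosome 4 also had 0 counts in both.

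The genes around the cluster did not differ by the same rule. Of 16 protein-coding genes within 300 kb of its ends, 10 were measured, and 0 of these had an interval wholly above 1 or wholly below it. Their ratios ran from 0.760 to 1.4 with a median log2 ratio of 0.04. The most abundant, the adaptor subunit gene Ap2b1, had 2749 counts in the IL-36 gamma library and 2766 in the control (ratio 1.04, 0.989 to 1.10). All 10 had fewer counts than Slfn2, and the metalloproteinase gene Mmp28, at 56 counts in the IL-36 gamma library and 42 in the control, had an interval of 0.921 to 2.14 that holds the ratio of each higher member.

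**Figure D4:**
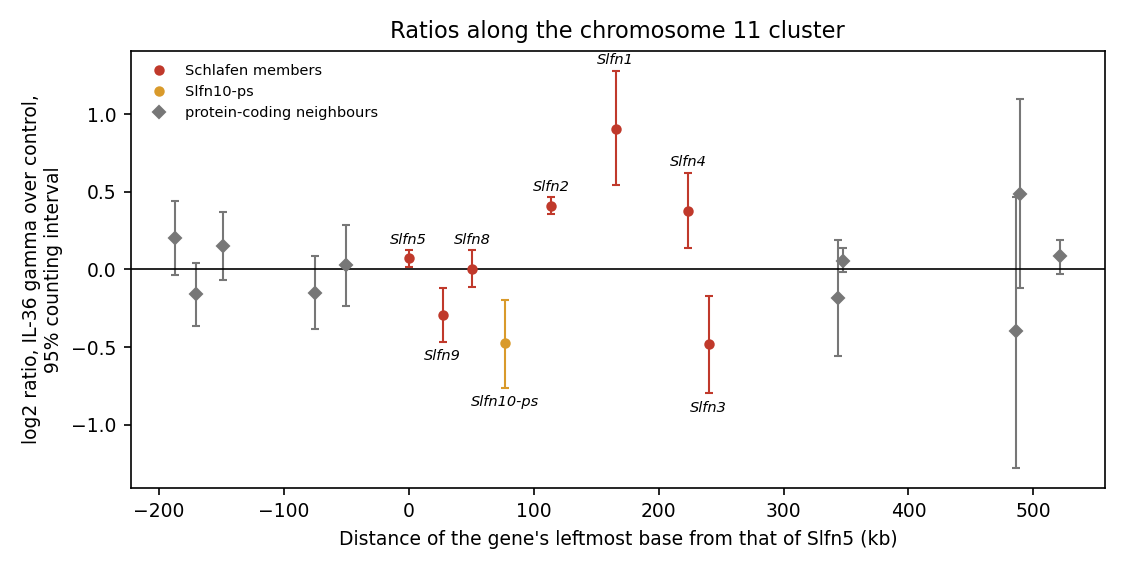
The log2 ratio of IL-36 gamma over control, with 95% counting intervals, against the distance in kilobases of each gene's leftmost base from that of Slfn5. Red points are the 7 members, the orange point is Slfn10-ps and grey diamonds are the 10 measured protein-coding neighbours. Slfn2, Slfn1 and Slfn4 stand above 0 side by side, and the interval of each neighbour includes 0.

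The promoters were searched for letters known from factors that act on interferon and inflammatory genes, in RefSeq windows from 250 bases before to 50 after each annotated start (GRCm38.p6), on both strands. All 7 members matched the table, with 8 promoters. The core of the interferon-stimulated response element, searched as GAAANNGAA, occurred in promoters of 3 of the 7 members, Slfn5, Slfn8 and Slfn9, beside 9.76% of all genes in the table. An NF-kB pattern, GGGNNTTCC, occurred in Slfn2, Slfn5 and Slfn9, beside 6.58% of genes, and the AP-1 pattern TGANTCA in Slfn4, beside 8.97%. The gamma-activated site pattern TTCNNNGAA occurred in 0 of 7, beside 9.55% of genes, and Slfn1 and Slfn3 held 0 matches of the 4 patterns. The AP-1 and gamma-activated site patterns read the same on both strands, and no matches in the members overlapped. The members with the response element core, Slfn5, Slfn8 and Slfn9, had ratios of 1.05, 1.0 and 0.817, and Slfn1, with the largest ratio, held no match. Variants that differ from the searched letters were not counted, in Slfn1 or any other gene. A match is only a run of letters, and no factor's binding was measured here.

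Windows with matches near the start, and the Slfn5 window with both of its response element matches, are shown so that the letters can be read. The NF-kB matches of Slfn5 and Slfn9, at -93 and -213, lie outside the windows shown. Each is written 5′ to 3′ on the gene's own strand, with matches in capitals. The Slfn2 window (chr11:83065012-83065111, plus strand) and the Slfn4 window (chr11:83175086-83175185, plus strand) are the 100 bases before the start. Those of Slfn8 (chr11:83020811-83020910) and Slfn9 (chr11:82991831-82991930), on the minus strand, are too. The Slfn5 window (chr11:82951937-82951984, plus strand) has its response element matches at -155 and -132 from the RefSeq start.
Slfn2: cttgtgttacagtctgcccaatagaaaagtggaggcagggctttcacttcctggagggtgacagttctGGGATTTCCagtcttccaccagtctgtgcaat
Slfn4: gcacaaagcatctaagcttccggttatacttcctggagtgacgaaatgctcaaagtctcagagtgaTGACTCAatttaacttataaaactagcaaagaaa
Slfn5: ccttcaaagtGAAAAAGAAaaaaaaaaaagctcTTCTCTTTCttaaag
Slfn8: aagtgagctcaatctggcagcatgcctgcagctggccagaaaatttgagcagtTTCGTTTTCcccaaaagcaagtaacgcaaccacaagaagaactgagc
Slfn9: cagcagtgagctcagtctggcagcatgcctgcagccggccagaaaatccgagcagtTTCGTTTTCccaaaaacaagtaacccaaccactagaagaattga
The Slfn8 and Slfn9 promoters carry the same match, at -47 and -44, and were identical at 84.9% of 292 aligned bases, while the ratio was 1.0 for Slfn8 and 0.817 for Slfn9.

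Most measured interferon-stimulated genes were higher with IL-36 gamma. Of 27 measured genes of an interferon-stimulated list, 20 were higher and 1 lower, with a median log2 ratio of 0.42, beside 0.07 for the Schlafen members. The membrane protein gene Bst2, which tethers virus particles, had 9805 counts in the IL-36 gamma library and 6986 in the control (ratio 1.47), and the oligoadenylate synthase gene Oas3 had 4497 and 3304 (1.43). The GTPase gene Mx1 was the lower one, with 657 counts in the IL-36 gamma library and 838 in the control (0.823). Slfn2 and Slfn4, at log2 ratios of 0.41 and 0.38, lay near the median of this list, and Slfn1, at 0.89, was level with its highest gene, Ifi27l2a. Slfn9, at -0.29, lay beside its lowest gene, Mx1 at -0.28, and Slfn3 lay lower, at -0.48.

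Of 15 measured genes of interferon signalling, 8 were higher and 3 lower, with a median of 0.09. The transcription factor genes Irf7 (336 CPM with IL-36 gamma and 163 in the control, ratio 2.06) and Stat2 (159 and 137, ratio 1.16) were higher. The kinase gene Jak1 (ratio 0.946) and the receptor gene Ifngr1 (0.881) were lower. The interferon gene Ifnb1 had 0 counts in both libraries.

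Lists of genes with roles next to those of Schlafen proteins had medians closer to 0 than the interferon-stimulated list. Of 15 genes of an antiviral list on RNA cutting and translation restraint, 8 were higher and 1 lower (median 0.22). Of these 15 genes, 7 also stand in the interferon-stimulated list. Within the antiviral list, Samhd1, which breaks down deoxynucleotides, had a ratio of 1.19. It had 6876 counts in the IL-36 gamma library and 6079 in the control. Of 6 genes of transfer RNA cleavage and protection, 1 was higher and 2 lower (median 0.00). Over all measured genes, 20.2% were called higher and 16.5% lower. The ribonuclease inhibitor gene Rnh1, which binds angiogenin, was higher (5390 counts in the IL-36 gamma library and 4722 in the control, ratio 1.20). Trdmt1, which methylates transfer RNA, was lower (59 and 92 counts, ratio 0.673, 0.477 to 0.944). The angiogenin gene Ang had 68 counts in the IL-36 gamma library and 53 in the control (ratio 1.35, 0.927 to 1.97).

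**Figure D5:**
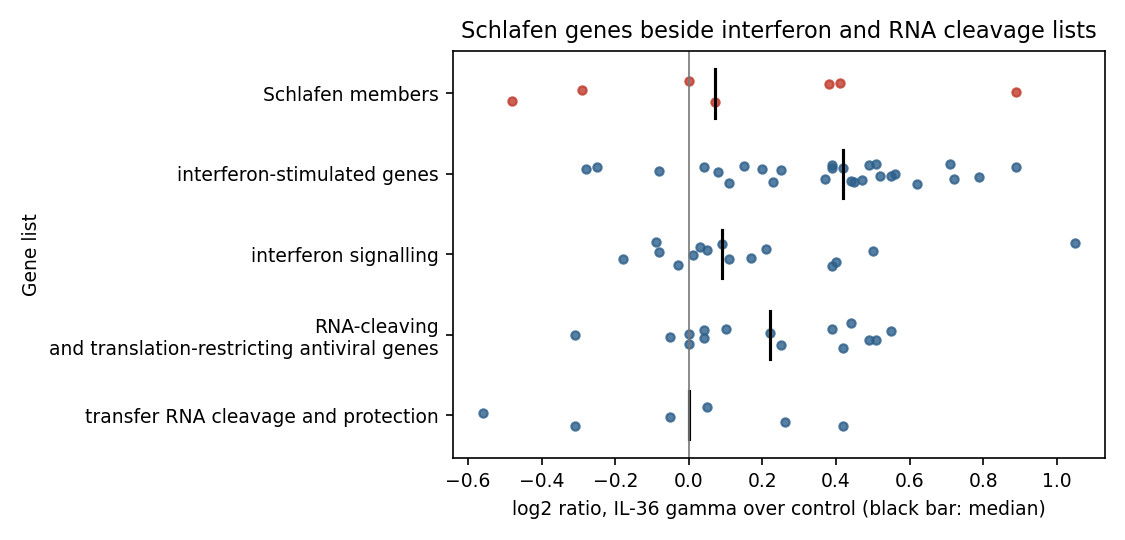
The log2 ratio of IL-36 gamma over control for each measured gene of 5 lists, 1 point per gene, with the list's median as a black bar. The Schlafen members (red) spread from -0.48 to 0.89 around a median of 0.07, and the interferon-stimulated genes have a median of 0.42.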

How the data were processed

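Messenger RNA of 1 IL-36 gamma and 1 control library was measured by sequencing. The authors deposited unnormalized counts for each Ensembl gene ID. HTSeq, STAR 2.5.0a, Trim Galore 0.6.1, FastQC 0.11.8 and the build mm10 are named, per the submitters' processing notes. For the annotation, counting mode, read length and strand, the sources used here give nothing. Rows that name no gene took 55.1% of the IL-36 gamma and 55.6% of the control table and stayed out of library sizes. Reads in no annotated feature made up 46.3% and 47.2%, and reads with several alignments 6.92% and 6.65%. Of 54446 gene IDs, 54409 matched GENCODE M21 without their version.

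Counts were scaled with TMM factors (0.981 and 1.02; edgeR 4.0.16, R 4.3.3). No significance test was run. Ratios have exact Clopper-Pearson intervals at 95% and were called over genes averaging 10 or more counts, checked on simulated Poisson libraries. Intervals, and the limit of 3 counts for a gene at 0, cover counting error only. Log2 ratios use a prior count of 2. Alternatives were total counts, DESeq2 1.42.0 and upper quartile scaling, protein-coding genes only, lowess trends (span 0.3), filters, fold bounds, interval levels and prior counts. GC content was that of the longest transcript. Coding sequences were read from GENCODE M21 and aligned with Biopython 1.88. Figures used matplotlib 3.10.9 and Python 3.11.15.

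The members were taken by their symbols and not by a measured value. This family and the gene lists were chosen with earlier results of these data known. The named genes were all Schlafen genes, called neighbours within 300 kb and, of each context list, the 2 most abundant higher and lower ones. A gene that the rule also names is not reported here. Other genes, such as Ap2b1, Ifnb1, Ang and the markers, were chosen after their values were seen. With 2 libraries a gene has a single ratio, so no genes were sought with a similar pattern.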

Additional observations from a re-analysis of the deposited data

How the results depend on the processing

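Under 4 other scalings and 3 trend corrections, 4 of 49 member ratios changed their call, and each was Slfn5, whose ratio was 0.991 with the expression trend removed. Slfn1, Slfn2 and Slfn4 stayed higher and Slfn3 and Slfn9 lower in all 7 of these alternatives. The Slfn2 ratio was 1.28 with total counts, 1.24 with the expression trend removed and 1.23 with the length trend removed. The ratio of the summed counts was 1.11 with total counts, 1.10 with the expression trend removed and 1.12 with the length trend removed. It was 1.03 without Slfn2 and 1.22 without Slfn5. The median log2 ratio of the members was -0.01 with the expression trend removed, and their mean was 0.14. The count of higher members was 3 or 4, that of lower members 2, and the count past 2-fold, 1.5-fold or 3-fold was 0, in all alternatives run. No paired analysis was possible because each group has 1 library. Culture to culture variation was not measured, and at 98 to 306 counts the ratios of Slfn1, Slfn3 and Slfn4 have wide intervals.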
